A study of Mus musculus with 8 samples.

Results

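The genes examined were 35 aminoacyl-tRNA synthetase genes in the mouse heart, 19 whose enzymes serve the cytosol and 16 whose enzymes serve mitochondria. Members were taken from a list of symbols, with the mitochondrial enzymes being those whose symbol ends in 2. All 35 were measured, by 72 of the 34945 probe sets that name 1 gene, and they are 35 of 18193 genes in all. Levels were read in the hearts of female mice of the MCK line, which is named for muscle creatine kinase, a gene whose promoter is active in heart and skeletal muscle. The 4 groups were knock-out (KO) mice, which carry a conditional gene deletion, and wild-type (WT) littermates, each at an age of 4 weeks or 10 weeks. Each group held 2 mice, and every heart had its own Affymetrix mouse array. The creatine kinase promoter is not known to be active in the fibroblasts, endothelium and blood cells of the heart. Since all 4 mice of one age came from the same litter, age and litter cannot be told apart.

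Each synthetase joins 1 kind of amino acid to its transfer RNAs, and the cytosol and the mitochondrial matrix run separate sets of these enzymes, all encoded in the nucleus. Several cytosolic synthetases sit together in the multi-synthetase complex, held by the scaffold proteins Aimp1, Aimp2 and Eef1e1. Many cytosolic synthetase genes are known targets of ATF4, the transcription factor of the integrated stress response, which is translated when initiation factor eIF2 is phosphorylated. Gars and Kars are exceptions to the division, since each gene makes both the cytosolic and the mitochondrial enzyme.

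The 10-week KO hearts stood apart from the other 6 on the first principal component of all genes (46.7 and 39.1, against values between -24.0 and -6.09). Replicate 1 of the 10-week WT hearts stood apart on the second (-43.3, against values between -4.17 and 13.9), and the counts and medians of both sets of synthetases that use it are also given without it. Heart markers were present in every group, with summed intensities of the cardiomyocyte genes Myh6, Tnnt2, Tnni3, Actc1, Myl2 and Ryr2 of 69989 to 84843 on the linear scale. Precision is limited by the number of arrays, 2 per group.

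Set against WT at 10 weeks, the KO hearts showed how the charging enzymes differed between genotypes at the older age. Of 19 cytosolic synthetases, 13 rose and 1 fell in KO, with a median difference of 0.95 on the log2 scale and a range from -0.54 to 1.87. Of 16 mitochondrial synthetases, 0 rose and 2 fell, with a median of -0.03 and a range from -1.31 to 0.27. An unadjusted p under 0.05 in either direction (limma) was found for 16 cytosolic and 4 mitochondrial genes, and for 4291 of all 18193 genes. Over all 18193 genes, 5.19% rose and 6.89% fell, and the median difference was 0.00 (two-sided limma test, called at a Benjamini-Hochberg adjusted p under 0.05, with the adjustment made over all genes). Without replicate 1 of the 10-week WT hearts 11 cytosolic synthetases rose and 0 fell, with a median of 0.81, and 2 mitochondrial ones fell, with a median of -0.18. The mitochondrial median changed sign, to 0.04, without replicate 1 of the 10-week KO hearts. In whole tissue, fewer cells of a type and less RNA per cell cannot be told apart.

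**Figure D1:**
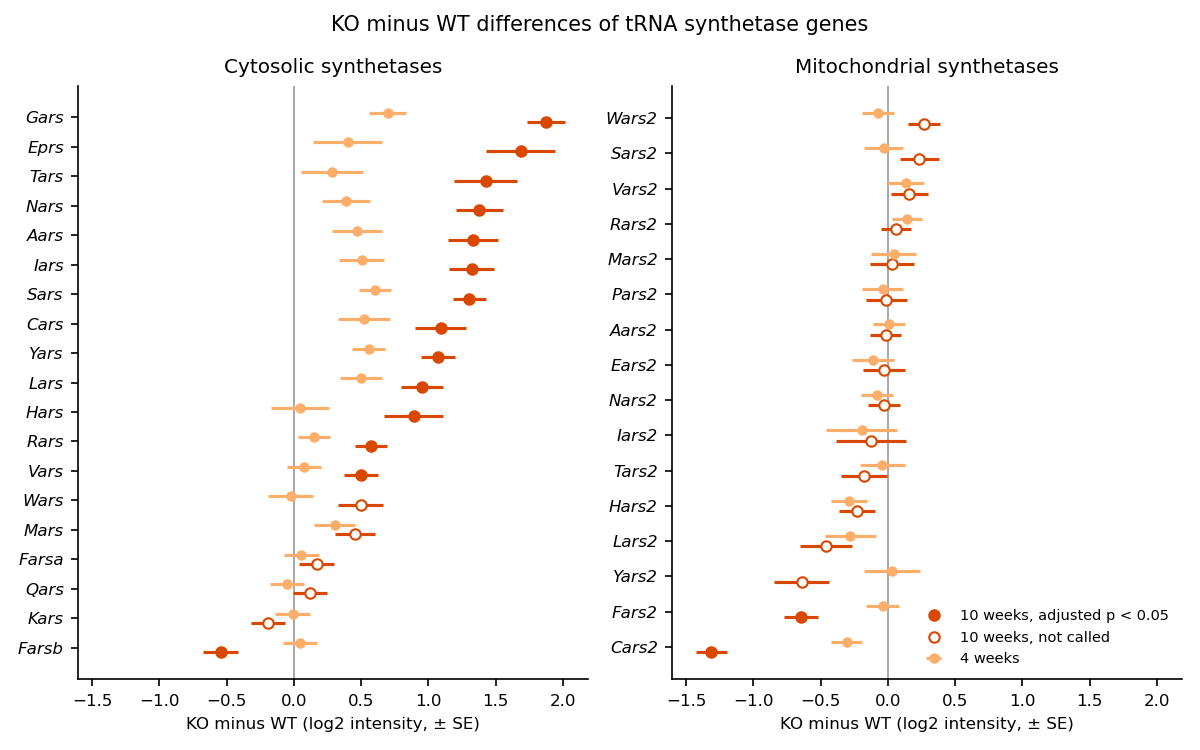
Differences between KO and WT (log2 intensity, horizontal axis) for each cytosolic (left) and mitochondrial (right) synthetase, with bars of ± 1 SE from the model of all 8 arrays. Pale points are 4 weeks, dark points 10 weeks, and filled dark points passed the test; cytosolic points reach 1.87 for Gars, and the lowest mitochondrial point is Cars2 at -1.31.

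Both KO hearts lay above both WT hearts for 16 cytosolic genes and below them for 2 (Farsb and Kars), while 2 mitochondrial genes (Rars2 and Wars2) lay above and 5 below. Over all genes, 23.7% had both KO arrays above both WT arrays and 23.5% below. The difference was positive for 17 of 19 cytosolic genes and for 5 of 16 mitochondrial ones, beside 50.8% of all genes. The cytosolic median was seen in each KO heart, at 0.77 in replicate 1 and 1.14 in replicate 2 above the mean of the 10-week WT pair. The mitochondrial median was -0.16 and 0.04 in the same hearts. Without replicate 1 of the 10-week WT hearts, 11 cytosolic genes passed, all of them higher, and the median was 0.81.

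The promoters of the synthetase genes were searched for TGATGNAA, the core of the composite element bound by C/EBP and ATF4 proteins, on both strands (TTNCATCA on the other). RefSeq promoter windows, from 250 bases before to 50 after the gene start, were matched for 26 of the 35 members, 12 cytosolic and 14 mitochondrial. Rars, Wars, Pars2, Hars2, Lars, Nars, Vars, Cars and Hars were not searched here. The core was found for 5 of 12 cytosolic and 0 of 14 mitochondrial genes (Aars2 has 2 windows), beside 4.51% of the 27025 genes of the table with windows of the same length. The 5 were Aars, Gars, Iars, Tars and Yars, and all 5 rose at 10 weeks. Of the 7 searched cytosolic genes that rose, 5 held the core, and of the 5 that did not rise, 0 held it. A match describes the letters and not a bound site, and no match says only that these letters are not in the window.

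The 5 windows are shown because they hold the core, as bases 1 to 280 of the window on the gene's strand. The gene start is base 251 (GRCm38.p6). Aars is at chr8:111033592-111033871 on the plus strand, Gars at chr6:55037751-55038030 on the plus strand, Iars at chr13:49681880-49682159 on the plus strand, Tars at chr15:11399629-11399908 on the minus strand and Yars at chr4:129189653-129189932 on the plus strand. Capitals mark the matches, at bases 139 to 146 and 260 to 267 in Aars, 221 to 228 in Gars, 258 to 265 in Iars, 236 to 243 in Tars and 254 to 261 in Yars. Only Yars holds the core on the gene's own strand, and the other matches read TTNCATCA.
Aars: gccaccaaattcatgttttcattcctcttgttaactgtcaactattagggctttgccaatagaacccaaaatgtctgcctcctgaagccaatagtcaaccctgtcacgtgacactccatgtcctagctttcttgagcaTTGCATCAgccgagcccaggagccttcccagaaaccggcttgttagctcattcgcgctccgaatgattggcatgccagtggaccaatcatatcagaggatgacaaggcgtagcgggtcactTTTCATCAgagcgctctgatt
Gars: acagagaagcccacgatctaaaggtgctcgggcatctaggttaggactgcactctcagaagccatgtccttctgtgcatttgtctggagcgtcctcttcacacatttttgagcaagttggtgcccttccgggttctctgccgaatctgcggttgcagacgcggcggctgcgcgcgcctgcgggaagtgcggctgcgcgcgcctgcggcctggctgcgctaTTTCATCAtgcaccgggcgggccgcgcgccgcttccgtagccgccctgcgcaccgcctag
Iars: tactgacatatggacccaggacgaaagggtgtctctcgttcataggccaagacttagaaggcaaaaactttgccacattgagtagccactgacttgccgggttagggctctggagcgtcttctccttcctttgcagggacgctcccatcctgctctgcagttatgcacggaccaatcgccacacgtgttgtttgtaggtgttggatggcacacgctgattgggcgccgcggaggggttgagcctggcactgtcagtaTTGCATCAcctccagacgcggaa
Tars: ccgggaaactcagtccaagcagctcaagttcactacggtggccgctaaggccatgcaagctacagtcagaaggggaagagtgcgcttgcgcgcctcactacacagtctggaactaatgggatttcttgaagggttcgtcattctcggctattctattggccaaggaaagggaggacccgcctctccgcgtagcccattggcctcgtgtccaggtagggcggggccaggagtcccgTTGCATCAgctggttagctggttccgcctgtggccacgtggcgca
Yars: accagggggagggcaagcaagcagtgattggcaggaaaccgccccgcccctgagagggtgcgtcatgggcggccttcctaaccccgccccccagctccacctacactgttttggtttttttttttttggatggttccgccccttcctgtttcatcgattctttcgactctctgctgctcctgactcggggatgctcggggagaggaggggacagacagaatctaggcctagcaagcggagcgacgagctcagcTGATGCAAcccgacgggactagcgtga

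Gars, glycyl-tRNA synthetase of both compartments, had the largest rise of the set at 10 weeks. Its log2 intensity was 8.72 and 8.62 in 4-week WT, 9.38 and 9.36 in 4-week KO, 8.34 and 8.44 in 10-week WT and 10.10 and 10.43 in 10-week KO hearts. Every KO heart was above every WT heart of its age, and the 10-week KO pair was above all others. The 10-week difference was 1.87 ± 0.14 (SE), a 3.67-fold rise (adjusted p = 8.85e-05). Kars, the lysyl enzyme and the other gene that serves both compartments, read 8.96 and 9.01 in 10-week WT and 8.70 and 8.88 in 10-week KO hearts. Its KO values lay just below its WT values, and the difference of -0.19 ± 0.13 did not pass (adjusted p = 0.429).

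Among the 7 members that belong to the multi-synthetase complex, 4 rose, and the median difference was 0.57. Eprs, which carries the glutamyl and prolyl activities in 1 chain, read 8.94 and 8.89 in 4-week WT, 9.32 and 9.31 in 4-week KO, 8.0 and 8.80 in 10-week WT and 9.78 and 10.39 in 10-week KO hearts. Its KO hearts were above all WT hearts, and replicate 1 was the lower of the 10-week WT pair. The difference of 1.69 ± 0.26 was 3.22-fold (adjusted p = 0.00312).

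Iars, the isoleucyl enzyme, read 8.71 and 8.63 in 4-week WT, 9.12 and 9.23 in 4-week KO, 8.06 and 8.53 in 10-week WT and 9.50 and 9.73 in 10-week KO hearts, again with no overlap between genotypes at either age. It rose by 1.32 ± 0.17 at 10 weeks (adjusted p = 0.00121). Lars, which charges leucine and is known as a leucine sensor for mTORC1, rose by 0.95 ± 0.15 (adjusted p = 0.00418). Its 10-week values were 8.18 and 8.46 in 10-week WT and 9.08 and 9.45 in 10-week KO hearts. Rars, the arginyl enzyme, rose by 0.57 ± 0.12 (adjusted p = 0.0139), and its call rests on replicate 2 of the 10-week KO hearts, without which the difference was 0.49 (adjusted p = 0.0926). Mars, the methionyl enzyme, differed by 0.46 ± 0.15 (adjusted p = 0.0873) and Qars, the glutaminyl enzyme, by 0.12 ± 0.13 (adjusted p = 0.666), and neither passed. Differences within the complex thus ran from -0.19 for Kars to 1.69 for Eprs.

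Of the 12 cytosolic synthetases outside the complex, 9 rose and 1 fell, with a median of 1.08. Sars, the seryl enzyme, read 8.72 and 8.73 in 4-week WT, 9.41 and 9.24 in 4-week KO, 8.79 and 8.74 in 10-week WT and 10.01 and 10.13 in 10-week KO hearts. The WT hearts of both ages lay within a narrow range, and the KO values lay above them at 4 weeks and higher again at 10 weeks. The 10-week rise was 1.31 ± 0.12, or 2.47-fold (adjusted p = 0.000264).

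Nars, which charges asparagine, read 9.38 and 9.30 in 4-week WT, 9.75 and 9.71 in 4-week KO, 8.87 and 9.12 in 10-week WT and 10.10 and 10.64 in 10-week KO hearts, and rose by 1.38 ± 0.18 at 10 weeks (adjusted p = 0.00133). Aars, the alanyl enzyme, read 8.42 and 8.39 in 4-week WT, 8.83 and 8.92 in 4-week KO, 7.80 and 8.30 in 10-week WT and 9.19 and 9.57 in 10-week KO hearts, and rose by 1.33 ± 0.19 (adjusted p = 0.00199). In both genes the 10-week KO pair was the highest of the 4 groups. Tars, the threonyl enzyme, read 7.64 and 7.80 in 4-week WT, 8.05 and 7.95 in 4-week KO, 6.97 and 7.60 in 10-week WT and 8.41 and 9.0 in 10-week KO hearts. Replicate 1 of the 10-week WT hearts was the lowest of the 8, and the 10-week difference was 1.43 ± 0.23 (adjusted p = 0.00419).

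Yars, the tyrosyl enzyme, read 7.82 and 8.04 in 10-week WT and 8.99 and 9.01 in 10-week KO hearts and rose by 1.07 ± 0.12 (adjusted p = 0.000834). Cars, the cysteinyl enzyme, read 6.55 and 6.71 in 10-week WT and 7.39 and 8.04 in 10-week KO hearts and rose by 1.09 ± 0.19 (adjusted p = 0.00606). For both, the lower KO heart was above the higher WT heart. Hars, which charges histidine, read 6.54 and 7.03 in 10-week WT and 7.40 and 7.95 in 10-week KO hearts and rose by 0.89 ± 0.22 (adjusted p = 0.0271). Its call was lost without replicate 1 of the 10-week WT hearts (0.64, adjusted p = 0.109), without replicate 2 of the 10-week KO hearts (0.62, 0.183), and without either 4-week WT heart (0.89, 0.0605 each).

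Vars, the valyl enzyme, rose by 0.50 ± 0.13 (adjusted p = 0.0342), the smallest rise that passed. Vars was no longer called with any 1 of the 8 arrays left out, at adjusted p-values of 0.0503 to 0.198 and differences of 0.39 to 0.61. Wars, the tryptophanyl enzyme and an interferon-responsive gene, had a difference of the same size, 0.50 ± 0.17, and did not pass (adjusted p = 0.093). Without replicate 1 of the 10-week KO hearts Wars passed (0.74, adjusted p = 0.0373), and without replicate 2 its difference was 0.26 (adjusted p = 0.452). Mars passed without replicate 2 of the 10-week WT hearts (0.57, adjusted p = 0.0453), and its difference was 0.31 without replicate 2 of the 10-week KO hearts (adjusted p = 0.396).

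Cytosolic phenylalanyl-tRNA synthetase is built from the catalytic Farsa and the Farsb subunits, and neither rose. Farsa read 6.50 and 6.61 in 10-week WT and 6.60 and 6.85 in 10-week KO hearts, with overlapping groups and a difference of 0.17 ± 0.13 (adjusted p = 0.521). Farsb read 9.26 and 9.19 in 4-week WT, 9.21 and 9.33 in 4-week KO, 9.07 and 8.99 in 10-week WT and 8.37 and 8.60 in 10-week KO hearts. It was the only cytosolic synthetase that fell at 10 weeks, by 0.54 ± 0.13 on the log2 scale (adjusted p = 0.0232). The call was lost without replicate 1 of the 10-week KO hearts (-0.43, adjusted p = 0.15), without replicate 1 of the 10-week WT hearts (-0.50, 0.07) and without either 4-week WT heart (-0.54, 0.0548 each). Its 3 brighter probe sets, of types that can match more than 1 transcript, gave -0.54, -0.48 and -0.96, and the dimmest gave 0.04.

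**Figure D2:**
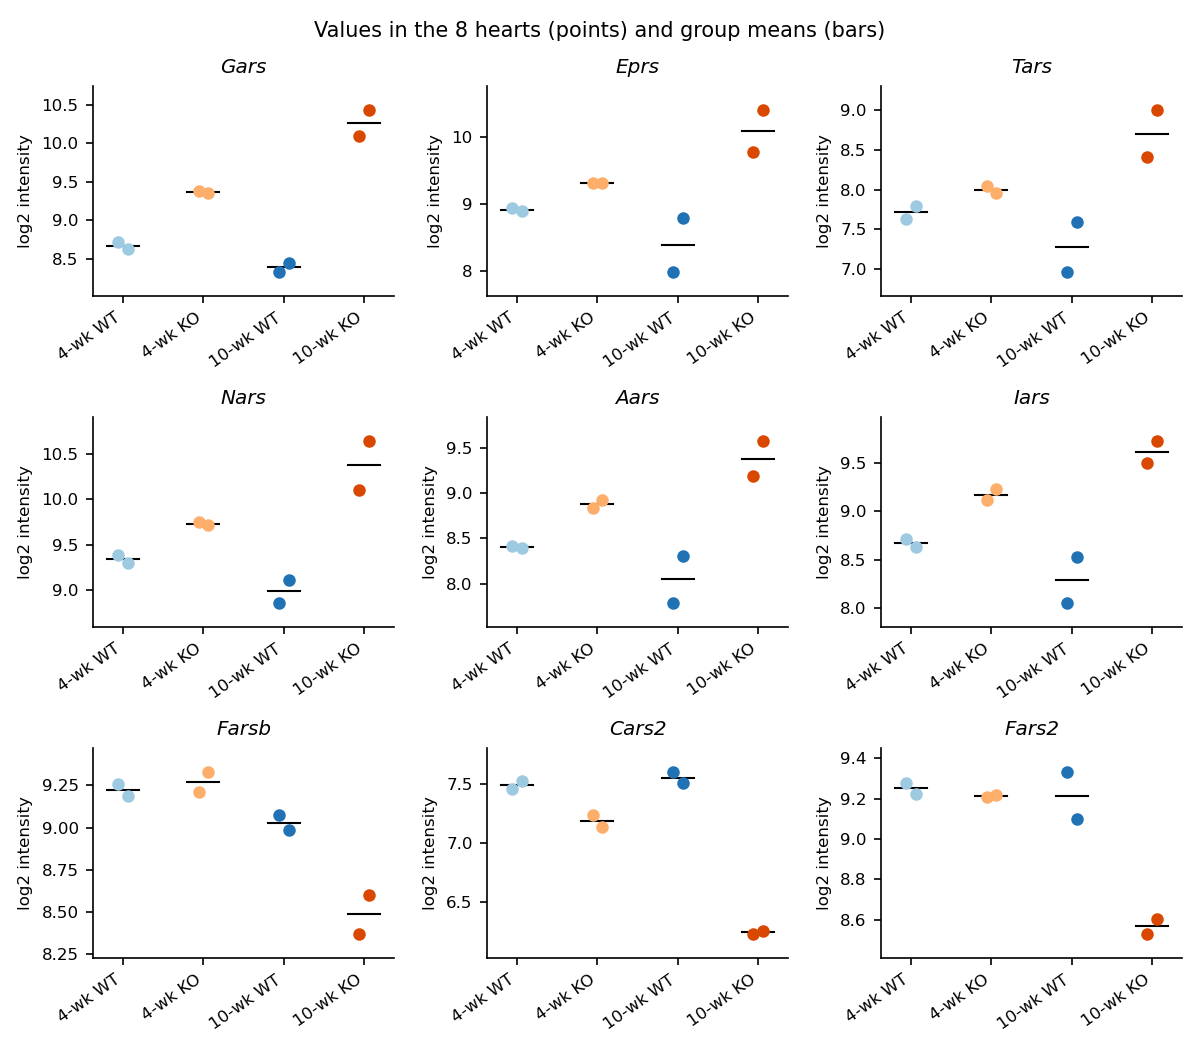
Log2 intensity (vertical axis) of 6 cytosolic synthetases with the largest rises, and of Farsb, Cars2 and Fars2, in each of the 8 hearts (points), with group means (bars). The 10-week KO pair is the highest group in the first 6 panels, with Gars at 10.10 and 10.43, and the lowest in the last 3, with Cars2 at 6.23 and 6.25.

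By catalytic fold, 7 of 10 class I synthetases rose, with a median of 0.76, and 6 of 9 class II synthetases rose and 1 (Farsb) fell, with a median of 1.31. No class or complex was set against another by a test.

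Of the mitochondrial synthetases, Cars2, the cysteinyl enzyme of the matrix, fell the most. Its log2 intensity was 7.46 and 7.53 in 4-week WT, 7.24 and 7.14 in 4-week KO, 7.60 and 7.51 in 10-week WT and 6.23 and 6.25 in 10-week KO hearts. The 10-week KO pair was the lowest group and the 4-week KO pair lay between it and the WT hearts. The 10-week difference was -1.31 ± 0.12, which is 2.49-fold lower (adjusted p = 0.000219), opposite in sign to that of its cytosolic counterpart Cars.

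Fars2, the single-chain phenylalanyl enzyme of mitochondria, read 9.28 and 9.22 in 4-week WT, 9.21 and 9.22 in 4-week KO, 9.33 and 9.10 in 10-week WT and 8.53 and 8.60 in 10-week KO hearts. Only the 10-week KO pair was below log2 9, and the difference was -0.65 ± 0.12 (adjusted p = 0.00953). Without replicate 1 of the 10-week KO hearts Fars2 did not pass (-0.61, adjusted p = 0.065). Yars2, the tyrosyl enzyme, read 6.35 and 6.29 in 10-week WT and 5.36 and 5.99 in 10-week KO hearts, with a difference of -0.64 ± 0.21 that did not pass (adjusted p = 0.0816). It passed without replicate 2 of the 10-week KO hearts (-0.95, adjusted p = 0.0247), so that 3 mitochondrial genes fell there. Its difference was -0.33 without replicate 1 of that pair (adjusted p = 0.44), and 1 mitochondrial gene fell there.

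Lars2, the leucyl enzyme, read 7.47 and 7.87 in 10-week WT and 6.96 and 7.46 in 10-week KO hearts, and its difference of -0.46 ± 0.19 did not pass (adjusted p = 0.176). It was -0.21 without replicate 1 of the 10-week KO hearts and -0.71 without replicate 2, and neither passed (adjusted p = 0.684 and 0.0758). The other 12 mitochondrial synthetases had differences from -0.23 (Hars2) to 0.27 (Wars2), and none passed, at adjusted p-values of 0.218 to 0.979. Mars2, the methionyl enzyme, was read by a dim probe set, with a mean log2 of 3.80 over the 8 arrays. Mitochondria have no glutaminyl enzyme of their own and use Ears2, which first charges the glutamine tRNA with glutamate; Ears2 read 5.82 and 6.12 in 10-week WT and 5.75 and 6.13 in 10-week KO hearts, with overlapping groups.

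**Figure D3:**
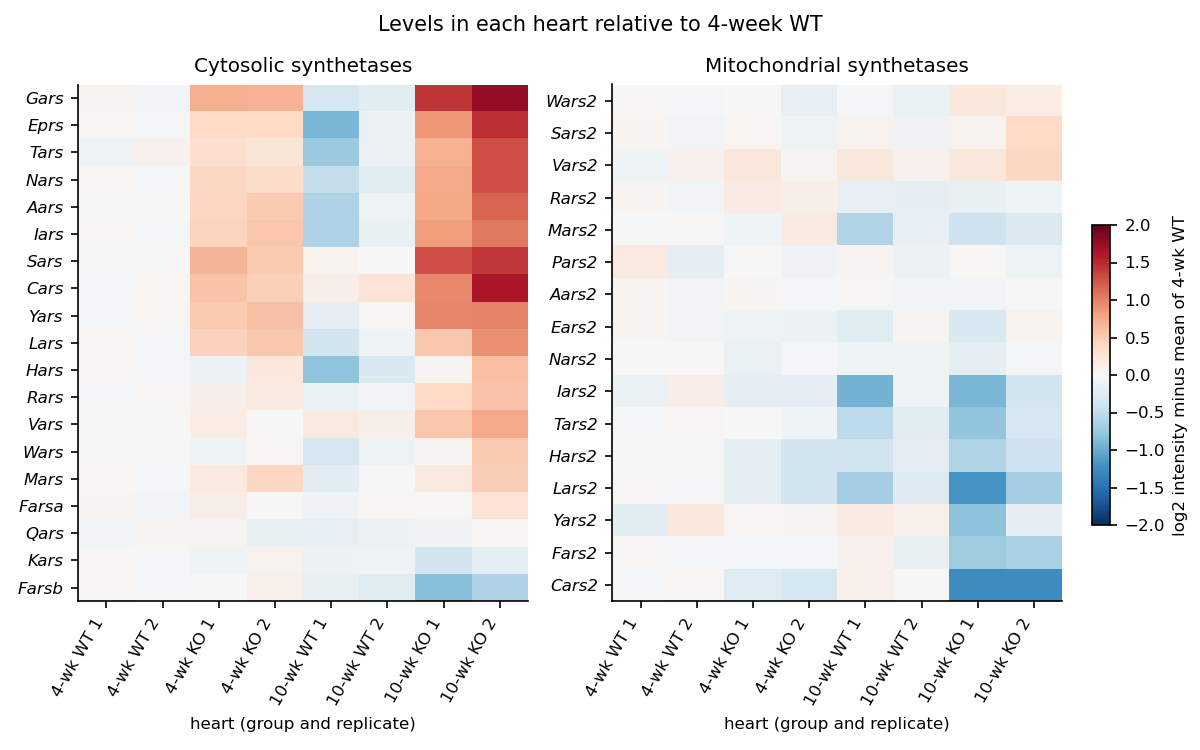
Log2 intensity of each synthetase in each of the 8 hearts, coloured by its difference from the mean of the 4-week WT pair (red higher, blue lower), with cytosolic genes on the left and mitochondrial genes on the right, ordered by the 10-week difference. Most cytosolic genes are red in the 10-week KO hearts, whereas Cars2, Fars2 and Farsb are blue there.

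The synthetases of both compartments were set side by side for each amino acid, in 17 pairs, with Eprs paired with both Ears2 and Pars2 and Fars2 with both subunits of the cytosolic enzyme. At 10 weeks the cytosolic difference was above the mitochondrial one in 17 of 17 pairs, with a median gap of 1.35 on the log2 scale. In 15 of these pairs the cytosolic minus mitochondrial value was higher in both KO hearts than in both WT hearts. The hearts overlapped for Farsb with Fars2 and for Wars with Wars2. Another probe set of Farsb gave -0.96, which is below the -0.65 of Fars2, so the order of that pair depends on the probe set. The gap was widest for cysteine, at 2.40 (1.09 for Cars and -1.31 for Cars2), and narrowest for Farsb with Fars2, at 0.10, where both fell. For tyrosine it was 1.71, for glutamate 1.72 and for tryptophan 0.23. At 4 weeks the cytosolic difference was the higher in 16 of 17 pairs, with a median gap of 0.44 and a range from -0.06 (valine) to 0.83 (cysteine). Pairs share their hearts and some share a gene, so these counts describe the hearts and carry no test.

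**Figure D4:**
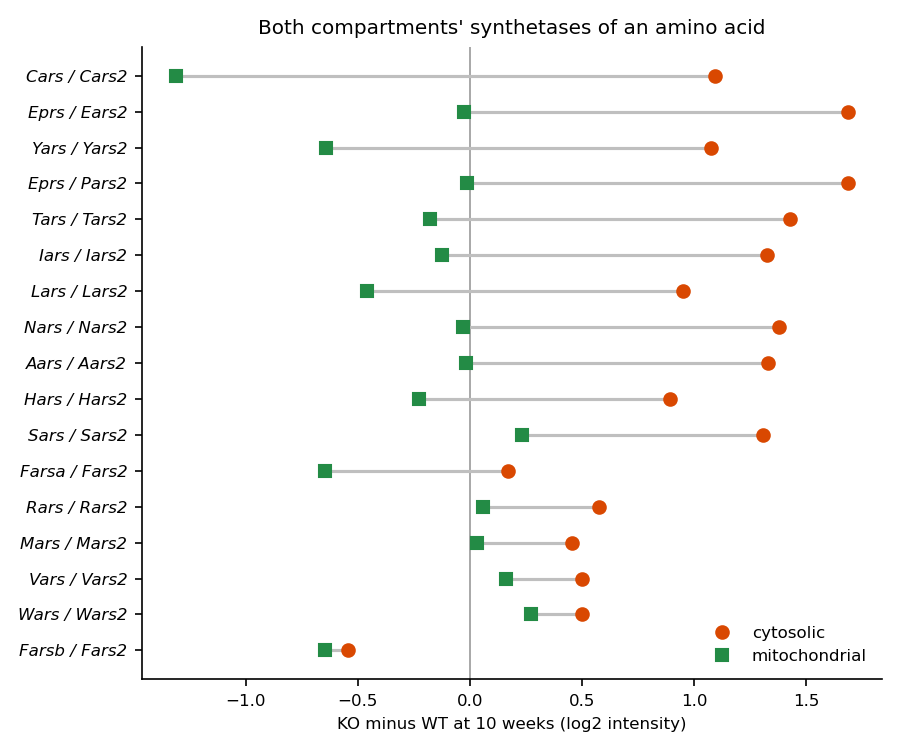
Difference between KO and WT at 10 weeks (log2 intensity, horizontal axis) of the cytosolic (circles) and mitochondrial (squares) synthetase of each pair, joined by a line and ordered by the gap. All 17 circles lie to the right of their squares, by 0.10 to 2.40.

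At 4 weeks, 0 cytosolic and 0 mitochondrial synthetases passed the test, where 0.0275% of all genes rose and 0% fell (limma). Unadjusted p-values were under 0.05 for 7 cytosolic and 1 mitochondrial gene, and for 679 of all genes. The cytosolic median difference was 0.30, with 16 of 19 positive, and the mitochondrial median was -0.04, with 5 of 16 positive, beside a median of 0.01 and 53.4% positive over all genes. Both KO hearts lay above both WT hearts for 12 cytosolic genes and 1 mitochondrial gene and below them for 0 and 7, where the shares of all genes were 19.4% above and 17.5% below.

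The 4-week differences with the smallest p were those of Gars, at 0.70 ± 0.14 (adjusted p = 0.541), Sars, at 0.60 ± 0.12 (0.541), and Yars, at 0.56 ± 0.12 (0.592). Lars differed by 0.50 ± 0.15, Iars by 0.50 ± 0.17, Cars by 0.52 ± 0.19 and Aars by 0.47 ± 0.19, each with an adjusted p of 0.999. These 7 all rose at 10 weeks. Cars2 differed by -0.31 ± 0.12 at 4 weeks (adjusted p = 0.999), and Farsb by 0.05 ± 0.13, with overlapping groups.

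Whether the genotype difference itself changed between the ages was tested as the difference of the differences. Over all genes 0.879% passed as higher at 10 weeks and 1.2% as lower. Of the synthetases, Gars passed, at 1.18 ± 0.20 (adjusted p = 0.0229), and Cars2 passed, at -1.01 ± 0.16 (adjusted p = 0.0211). The cytosolic median of this difference was 0.52, with 17 of 19 positive, and the mitochondrial median was 0.01. Without replicate 2 of the 10-week KO hearts the cytosolic median was 0.34, and without replicate 1 of the 10-week WT hearts it was 0.45 with 1 call. With 1 array left out the mitochondrial median took either sign, from -0.09 to 0.08, and it was -0.07 with 1 call without replicate 1 of the 10-week WT hearts. Eprs had the largest value, 1.29 ± 0.36, and did not pass (adjusted p = 0.123), and Farsb had -0.59 ± 0.18 (adjusted p = 0.158).

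These calls depended on single arrays, and calls over all genes fell as well wherever Gars or Cars2 was lost. Gars was lost without replicate 2 of the 10-week KO hearts (1.01, adjusted p = 0.0566) and without any of the 4-week hearts (1.13 to 1.22, adjusted p = 0.0784 to 0.145). Cars2 was lost without either 10-week KO heart (-1.0 and -1.02, adjusted p = 0.0712 and 0.0554) and without any of the 4-week hearts (-1.06 to -0.96, adjusted p = 0.0784 to 0.134). Without replicate 2 of the 10-week WT hearts the cytosolic median was 0.64. More synthetases passed there, and so did more genes over all genes.

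Within WT hearts, 0 synthetases of either compartment passed between 4 and 10 weeks (limma; 0.0495% of all genes rose and 0.066% fell), with 2 cytosolic and 3 mitochondrial genes at an unadjusted p under 0.05. Over all 18193 genes, 3285 had an unadjusted p under 0.05 (limma). The cytosolic median was -0.19, with 3 of 19 positive, and the mitochondrial median -0.09, beside a median of 0.05 and 57.2% positive over all genes. With genes below the median level left out, the median over the 9097 genes kept was -0.10. With quantile normalization applied again the cytosolic median was -0.03, beside 0.05 over all genes. Without replicate 1 of the 10-week WT hearts 0 passed in either set, and the medians were -0.10 and -0.11. Without replicate 2 of the 10-week WT hearts, which leaves the replicate that stood apart, the cytosolic median was -0.22. Calls then rose over all genes as well as among the synthetases.

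Within KO hearts, 4 cytosolic synthetases rose from 4 to 10 weeks and 1 fell, with a median of 0.43, and 2 mitochondrial ones fell, with a median of -0.24. Over all genes 3.42% rose and 7.07% fell, which is 622 and 1286 genes; with quantile normalization applied again the split was 919 and 1102. The rises were those of Gars (0.90 ± 0.14, adjusted p = 0.0042), Cars (0.76 ± 0.19, 0.0355), Sars (0.75 ± 0.12, 0.00518) and Vars (0.57 ± 0.13, 0.022). The falls were those of Farsb (-0.78 ± 0.13, 0.00534), Cars2 (-0.95 ± 0.12, 0.00149) and Fars2 (-0.64 ± 0.12, 0.0119). This comparison shares the 10-week KO hearts with the comparison of genotypes, so the 2 sets of calls are not independent.

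Single arrays moved these counts as well. Without replicate 2 of the 4-week KO hearts Sars (0.66) and Farsb (-0.72) lost their calls in KO, and the cytosolic median was 0.46. Calls fell there over all genes as well as among the cytosolic synthetases. With either 10-week WT heart left out, more synthetases passed in both sets, and more genes passed over all genes. Without replicate 2 of the 10-week KO hearts fewer cytosolic and more mitochondrial genes passed, the cytosolic median was 0.31, and calls over all genes fell. Cars and Vars lost their calls without replicate 2 of the 10-week KO hearts (0.44, adjusted p = 0.142, and 0.46, 0.121), and without any 4-week heart (Cars 0.72 to 0.81, adjusted p = 0.076 to 0.207; Vars 0.50 to 0.65, 0.0551 to 0.174). Fars2 lost its call without replicate 1 of the 10-week KO hearts (-0.61, adjusted p = 0.083) and without either 4-week KO heart (-0.65 and -0.64, 0.0591 and 0.0932).

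Further probe sets were available for 23 members, 37 in all. At 10 weeks 12 of them, of 9 genes, had the opposite sign to the probe set used, and 0 of these 12 passed. The 10 that did pass all had the same sign as the probe set used. The 10-week difference of Eprs was 2.06, 2.07 and 0.30 on its others, where the last is dim, and that of Sars was 1.59, of Nars 1.51, of Iars 1.51 and of Aars 1.43. For Cars it was -0.08 on a dim probe set. For Qars, whose difference was 0.12 on the probe set used, it was -0.26 and -0.21 on bright ones and -0.03 on a dim one, and none passed. For Cars2 it was -1.86 on a further probe set and 0.05 on another that is dim, for Fars2 -0.85 and for Yars2 -0.37.

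Genes around the synthetases were counted from lists of the same pathways. The scaffold of the multi-synthetase complex had 0 of 3 genes that passed at 10 weeks (limma, with 0 of 3 at an unadjusted p under 0.05), with Aimp2 at -0.17 ± 0.13 and Eef1e1 at -0.26 ± 0.20. Of 5 cytosolic elongation factors, which bring charged tRNA to the ribosome and move it along, 2 rose and 1 fell, with a median of -0.01. Eef2, the translocase, rose by 0.79 ± 0.19 (adjusted p = 0.0284), Eef1a1, which delivers aminoacyl-tRNA, rose by 0.67 ± 0.14 (0.0125), and Eef1d, of its exchange factor, had -0.67 ± 0.12 (0.00808). Eef2 lost its call with any 1 array left out except replicate 2 of the 10-week WT hearts (0.47 to 0.90, adjusted p = 0.051 to 0.169), Eef1a1 without replicate 1 of the 10-week KO hearts (0.58, 0.0907) and Eef1d without replicate 2 (-0.55, 0.0599).

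On the mitochondrial side, 0 of 9 translation factors rose and 1 fell, with a median of -0.35. The one that fell was Mrrf, which recycles mitochondrial ribosomes (-0.87 ± 0.13, adjusted p = 0.00307). Tufm, the elongation factor that carries charged tRNA in the matrix, differed by -0.60 ± 0.18 and did not pass (0.0606; it was chosen after its value was seen).

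Of 12 genes of mitochondrial tRNA charging and modification, 1 rose and 2 fell, with a median of -0.01. Trit1, which adds an isopentenyl group next to the anticodon of cytosolic and mitochondrial tRNAs, rose by 1.35 ± 0.15 (adjusted p = 0.000621). Gatb, a subunit of the amidotransferase that finishes glutamine charging after Ears2, had -0.66 ± 0.18 (0.0397), and Mto1, a modifier of the wobble base, -0.49 ± 0.13 (0.0361). Gatb lost its call with any 1 array left out except replicate 2 of the 10-week WT hearts (-0.75 to -0.38, adjusted p = 0.0695 to 0.212). Mto1 lost its call with any 1 array left out except replicate 2 of the 10-week KO hearts (-0.54 to -0.36, adjusted p = 0.052 to 0.215).

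Of 13 genes of RNA polymerase III, which transcribes tRNA genes, and of tRNA export, 3 rose and 1 fell, with a median of 0.11. Polr3g, an alternative subunit, rose by 1.23 ± 0.15 (adjusted p = 0.00111), Xpot, the exportin of tRNA, by 1.12 ± 0.22 (0.0108) and Polr3a, the largest subunit, by 1.09 ± 0.29 (0.039). Further probe sets of Polr3a gave 0.52, which passed, and 0.28, which did not (limma, adjusted p = 0.0178 and 0.45). Maf1, the repressor of the polymerase, had -0.85 ± 0.13 (0.00285) and was named after its value was seen, as the only fall. Xpot lost its call without replicate 2 of the 10-week KO hearts (0.88, adjusted p = 0.0845). Polr3a lost its call without either 10-week KO heart, without replicate 1 of the 10-week WT hearts and without either 4-week WT heart (0.66 to 1.12, adjusted p = 0.0807 to 0.17).

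Of 9 amino acid transporters, which supply the substrates of the synthetases, 5 rose and 0 fell, with a median of 0.56. Slc7a5 and Slc3a2, the light and heavy chains of the carrier of large neutral amino acids, rose by 1.66 ± 0.22 (adjusted p = 0.00142) and 1.51 ± 0.19 (0.00123). Slc38a2, which brings in small neutral amino acids, rose by 1.29 ± 0.27 (0.0142), and not without replicate 2 of the 10-week KO hearts (1.09, adjusted p = 0.107).

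Of 12 regulators of the integrated stress response, 6 rose, 0 fell and the median was 0.60. Ddit3, a transcription factor downstream of ATF4, read 7.69 and 7.61 in 4-week WT, 8.86 and 8.45 in 4-week KO, 7.48 and 7.79 in 10-week WT and 9.76 and 10.70 in 10-week KO hearts, and rose by 2.59 ± 0.27 at 10 weeks (adjusted p = 0.000519). Trib3, a pseudokinase that dampens ATF4, rose by 2.03 ± 0.22 (0.000586), and Nupr1, a stress-induced nuclear protein, by 1.96 ± 0.17 (0.000203). Atf4 itself, named here because its element was searched in the promoters, read 9.25 and 9.33 in 4-week WT, 10.20 and 9.84 in 4-week KO, 9.01 and 9.30 in 10-week WT and 10.81 and 11.28 in 10-week KO hearts, and rose by 1.89 ± 0.19 (0.000386). On further probe sets Atf4 gave 2.27 and 0.07, Ddit3 0.44, Trib3 2.60 and Nupr1 2.19. Those at 0.07 and 0.44 did not pass (limma, adjusted p = 0.827 and 0.162). The 4 kinases of eIF2 that start the response (Eif2ak1, Eif2ak2, Eif2ak3 and Eif2ak4) had differences from -0.02 to 0.27, and none passed (limma, adjusted p = 0.381 to 0.96). At 4 weeks 0 genes of any of these 7 lists passed, with 0 genes at an unadjusted p under 0.05 in 5 of the lists, 3 among the transporters and 4 among the stress regulators.

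**Figure D5:**
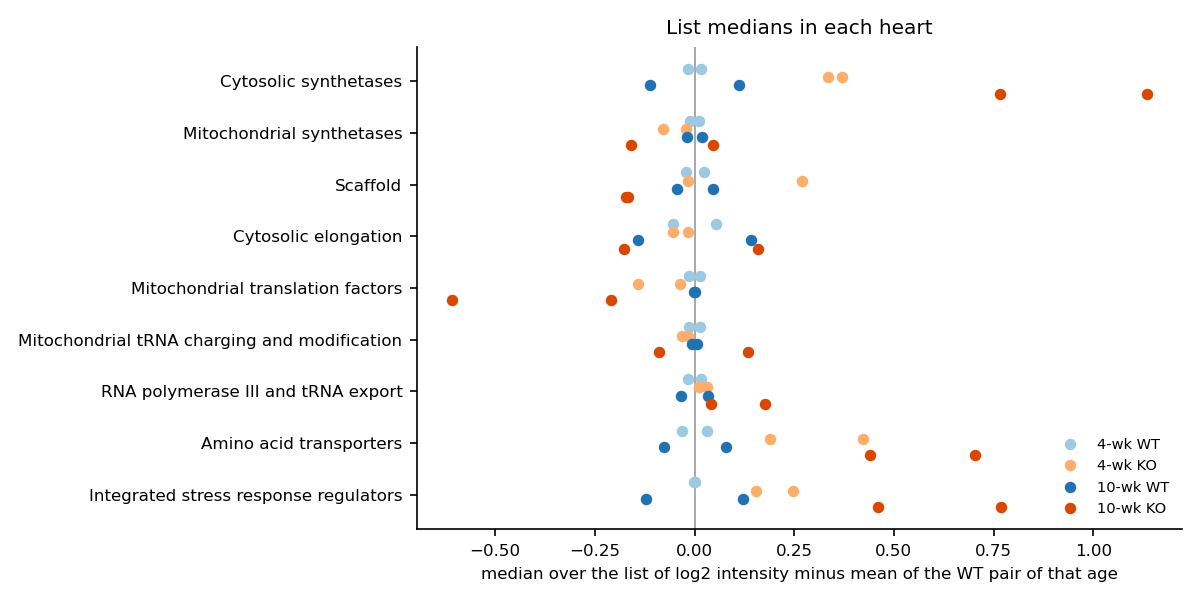
Median over each list of the log2 intensity minus the mean of the WT pair of that age (horizontal axis), 1 point per heart, for both synthetase sets and 7 related lists. The 10-week KO hearts lie at 0.77 and 1.14 for cytosolic synthetases and at -0.16 and 0.04 for mitochondrial ones.

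Markers of other cell types moved with the 10-week KO group. Of 6 fibroblast markers 5 rose, and their summed intensity was 4939 to 7121 in 10-week WT and 18495 to 19005 in 10-week KO hearts. Of 5 macrophage markers 4 rose, with sums of 1498 to 1641 and 4460 to 5275. At 4 weeks 0 of either passed (limma, with 2 and 1 at an unadjusted p under 0.05), and the sums were 9441 to 11214 in WT and 11199 to 12172 in KO for fibroblasts, and 1568 to 1675 and 1764 to 2252 for macrophages. Cardiomyocyte markers were 70434 to 83246 in 10-week WT and 69989 to 77626 in 10-week KO hearts, with 2 of 6 lower (Tnni3 and Ryr2). Skeletal muscle markers summed to 1582 to 1975 in 10-week WT and 7289 to 11506 in 10-week KO hearts, with 1 of 3 higher (Acta1, by 2.45). Their median difference was 0.06 and the lowest was -0.28, so the sum followed Acta1 and not the list. At 4 weeks the skeletal muscle sums were 2691 to 3392 in WT and 6291 to 6835 in KO, with a median difference of 0.07. There 0 passed (limma) and 1 had an unadjusted p under 0.05. Of 4 atrial markers Nppa was higher at 10 weeks (1.04) and Sln lower (-2.35), with sums of 15963 to 24145 in WT and 23348 to 23621 in KO. Of these 4 differences 3 were negative, with a median of -1.19, and 3 of the 4 had an unadjusted p under 0.05 (limma). At 4 weeks the atrial sums were 6295 to 9286 in WT and 13175 to 28133 in KO, and 0 of 4 passed (limma), with 4 at an unadjusted p under 0.05, all with positive differences. Of 3 smooth muscle markers 1 rose at 10 weeks (Tagln, by 0.58), with sums of 2728 to 3931 in WT and 3175 to 3635 in KO. Kidney markers summed to 167 to 872 in 10-week WT and 63.9 to 66.4 in 10-week KO hearts, with 1 of 2 lower (Kap, at -2.70). Of 4 endothelial markers, 2 lymphocyte markers and 1 adipocyte marker none passed at either age (limma), with 1 endothelial marker at an unadjusted p under 0.05 at 10 weeks. Liver markers summed to 382 to 3704 in 10-week WT and 129 to 253 in 10-week KO hearts, with 0 of 3 passing and 1 at an unadjusted p under 0.05. No marker is at 0 on these arrays, since RMA intensities do not reach 0. The part of these cells in the synthetase differences was not tested.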

How the data were processed

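Total RNA from 8 hearts was extracted with TRIzol and labelled with biotin, 1 array per heart, per the labels' protocols. The authors deposited probe set intensities on the linear scale, for which the submitters' processing notes name GCOS 1.3 and RMA, with no RMA version or order given. RMA is meant to make the distributions of arrays alike, so differences are relative to all genes. The deposited array medians still ran from 34.3 to 37.4 on the linear scale. Quantile normalization applied again moved the cytosolic median between ages from 0.43 to 0.62 in KO and from -0.19 to -0.03 in WT. Here log2 of the deposited intensities was taken, with no pseudocount and no filter on dim probe sets.

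Of 45101 probe sets 64 controls were left out, and 34945 of the other 45037 name 1 gene in the platform annotation, 932 several and 9160 none. The brightest probe set by mean stood for each of 18193 genes. Mars was matched through its current symbol. All 8 arrays entered a linear model of the 4 group means (limma 3.58.1 under R 4.3.3; lmFit and eBayes, 4 residual degrees of freedom and 9.33 in total), with p-values adjusted over all genes (Benjamini-Hochberg) and a threshold of 0.05. Differences between genotypes had a median SE of 0.145 (log2). The script was tested on simulated data.

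The members, the pathway and marker lists and the alternatives were chosen with earlier results of these data known. All members are given, and in related lists up to 3 called members with the largest 10-week difference, or, with none called, the 2 of lowest p. Some genes of the related and marker lists were not analysed here, and counts are over those that were. Alternatives were other probe set summaries, filters on dim genes, normalizations, variance settings, array weights, fewer groups, a replicate block and each array left out. The same alternatives for related genes were added after seeing the data. The targeted gene is not reported here.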

Additional observations from a re-analysis of the deposited data

Results flagged for a closer look

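The genotype difference of Gars differed between the ages, being larger at 10 than at 4 weeks by 1.18 on the log2 scale (limma, adjusted p = 0.0229), with both KO hearts above both WT hearts at each age. That of Cars2 also differed between the ages, by -1.01 (adjusted p = 0.0211), with both KO hearts below both WT hearts at each age. Both calls were lost with single arrays left out, where calls over all genes fell as well, and age and litter cannot be told apart.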

How the results depend on the processing

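At 10 weeks, 9 of the 13 cytosolic rises passed in all 19 alternatives and Sars in the 18 that measured it (Hars, Rars and Vars did not), and the fall of Cars2 passed in all 19, but not those of Farsb and Fars2. The count of cytosolic calls ran from 10, with only the groups compared, to 16, with quantile normalization again or the replicate block. Over all genes these settings called 400 higher and 559 lower, 1240 and 1299, and 1287 and 1554. With 1 array left out the cytosolic count stayed the same or fell, and its median ran from 0.77 to 1.14. Calls over all genes moved there in either direction. Mitochondrial calls at 10 weeks were 1 without probe sets of shared sequence, 1 with only the groups compared and 1 to 3 with 1 array left out. At 4 weeks 0 synthetases passed in any alternative. For the difference between ages, cytosolic calls were 2 with the mean of probe sets and 2 with quantile normalization again. With 1 array left out the calls of both sets moved in either direction, and so did those over all genes. Within WT, synthetases were called only without replicate 2 of the 10-week WT hearts, where calls over all genes rose as well. Within KO, cytosolic calls were 3 without probe sets of shared sequence, 12 with quantile normalization again, 9 with array weights and 1 to 11 with 1 array left out, and mitochondrial calls were 1 without probe sets of shared sequence and 1 to 5 with 1 array left out. Without probe sets of shared sequence Farsb was read by its dim probe set, at 0.036 (adjusted p = 0.916) between genotypes at 10 weeks and 0.19 (adjusted p = 0.363) between ages in KO, and Sars, Fars2, Tars2 and Yars2 had no probe set left. For the other changes the cause was not tested. Among related genes, Eef2 and Mto1 lost their 10-week calls with the mean of probe sets (0.30 and -0.28, limma, adjusted p = 0.135 and 0.105). Mto1 lost its call also with array weights and with other variance settings, and Eef2 and Polr3a with arrays centred on their medians. Eef2, Eef1d, Eef1a1, Gatb, Mto1, Xpot, Polr3a and Slc38a2 were not called with only the groups compared.

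The labels number the mice 1 and 2 without saying that a number marks a pair, and same-numbered hearts deviated together with correlations of 0.30 at 4 weeks and 0.23 at 10 weeks across genes. With the replicate number as a block, 16 cytosolic and 4 mitochondrial synthetases passed at 10 weeks (Mars, Wars, Lars2 and Yars2 were added), and 7 cytosolic and 1 mitochondrial passed for the difference between ages. Calls over all genes rose as well, from 945 higher and 1254 lower to 1287 and 1554 at 10 weeks. For the difference between ages they rose from 160 and 219 to 333 and 418. The block cannot be used for comparisons of the ages within a genotype. With 2 hearts per group and 4 residual degrees of freedom, small differences are out of reach, and dim genes such as Mars2 more so.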
